A study of Mus musculus with 10 samples.

Results

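Lars2, Mir6236 and 4 loci known here only by their gene identifiers (ENSMUSG00000118841, ENSMUSG00000118866, ENSMUSG00000140136 and ENSMUSG00002076161) were followed library by library in mouse retina. These 6 genes, of 11702 in the gene table, were chosen by their counts in these same libraries, because they stood high together in the rd10 retinas that had received halofantrine and were labelled batch 2. Their levels under halofantrine against DMSO are therefore given as a description, with no test. The 10 libraries came from retinas of female mice. In 4 WT libraries and 3 rd10 libraries the eye had received DMSO, the vehicle, and in the other 3 rd10 libraries it had received 20 μM halofantrine. Every eye had 1 μL injected into the vitreous at postnatal days 10 and 24, and retinas were taken at day 36. The rd10 mice (B6.CXB1-Pde6brd10/J) carry a mutation of Pde6b, the rod phosphodiesterase subunit, and lose their rods early in life, and the strain of the WT mice is not given in the sources used here. All WT libraries, rd10 DMSO replicates 1 and 2 and halofantrine replicate 1 were labelled batch 1, and rd10 DMSO replicate 3 and halofantrine replicates 2 and 3 were labelled batch 2. In bulk retina, fewer cells of a type and less RNA per cell cannot be told apart.

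Lars2 encodes the mitochondrial leucyl-tRNA synthetase, which charges the mitochondrial leucine tRNA and is needed for translation inside mitochondria. Mir6236 is annotated as a microRNA hairpin. A microRNA is cut from such a hairpin to a short mature strand, and the seed near its 5′ end pairs with target mRNAs. Signal recognition particle RNA, or 7SL, is a structured RNA made by RNA polymerase III that helps to deliver nascent secreted proteins to the endoplasmic reticulum. 7SL RNA does not carry the long poly(A) tail of an mRNA, and the libraries were labelled as made from poly(A) RNA.

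The reference names Mir6236 as 1 transcript on chromosome 9, where Lars2 also lies. That entry is the hairpin, so its counts were of fragments assigned to the whole entry and were not a measurement of the mature strand.

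ENSMUSG00000118841 and ENSMUSG00000118866 had equal counts in each of the 10 libraries and were read as 1 measurement, so the 6 members gave 5 distinct count profiles. Those counts equalled the counts of 2 transcripts that GENCODE M21 names Rn7s1 and Rn7s2, the mouse 7SL RNAs. Which identifier belongs to which transcript could not be told from equal counts. The transcript closest in counts to ENSMUSG00000140136 held 99.5% of that gene's counts, and 1 transcript had counts equal to those of ENSMUSG00002076161. These 2 links rest on counts alone. Neither gene is named here, since the reference used holds no entry for them.

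One library stood apart before any member was compared. WT replicate 4 held 2413 CPM (counts per 1e6 counts, scaled by the trimmed mean of M values, TMM) over 7 rod markers, against 67718 to 71656 CPM in the other WT libraries and 3351 to 9890 CPM in the rd10 DMSO libraries. Its Pde6b level was 93.1 CPM, against 2699 to 2855 CPM in the other 3. Its microglia markers summed to 62.0 CPM, against 9.73 to 12.2 CPM in the other WT libraries and 52.7 to 71.8 CPM in rd10 DMSO. Its bipolar markers summed to 2281 CPM, against 1239 to 1335 CPM and 2001 to 2408 CPM. The label of this library may be wrong, and that was not tested. The library is called the library labelled WT replicate 4, and the tests against WT are given with and without it. Depth ran from 15512212 counts on genes in rd10 DMSO replicate 3 to 38160436 in rd10 DMSO replicate 2. The titles also hold 5 set names, whose meaning is not given in the sources used here. WT replicates 1 to 3 shared 1 of them and WT replicate 4 had another, rd10 DMSO replicates 1 and 2 shared 1 with halofantrine replicate 1, halofantrine replicates 2 and 3 shared 1, and rd10 DMSO replicate 3 had its own. WT and rd10 libraries thus shared 0 set names, so set and genotype cannot be told apart, and the same holds for set and treatment within batch 2.

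Each member stood highest in halofantrine replicate 2 and lowest in rd10 DMSO replicate 3, 2 libraries of the same batch. Lars2 was at 185, 212, 149 and 170 CPM in WT replicates 1 to 4, at 84.8, 113 and 74.6 CPM in rd10 DMSO replicates 1 to 3, and at 125, 880 and 520 CPM in halofantrine replicates 1 to 3. Mir6236 was at 14.4, 24.1, 13.2 and 12.9 CPM in WT, at 4.83, 7.48 and 3.51 CPM in rd10 DMSO, and at 11.5, 103 and 64.5 CPM with halofantrine. In both genes halofantrine replicates 2 and 3 lay above the other 8 libraries, the 4 WT libraries came next, and the rd10 DMSO libraries were lowest, with halofantrine replicate 1 between those 2 groups. ENSMUSG00000140136 followed the same order, at 45.7, 55.6, 36.1 and 40.6 CPM in WT, at 17.0, 22.2 and 7.5 CPM in rd10 DMSO, and at 33.6, 261 and 158 CPM with halofantrine.

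The 2 scarcer profiles kept part of that order. Each entry of the 7SL pair was at 2.37, 9.98, 4.26 and 9.81 CPM in WT, at 1.80, 1.88 and 1.17 CPM in rd10 DMSO, and at 4.33, 20.4 and 7.43 CPM with halofantrine. Values of this pair are given throughout for 1 entry and not as a sum. Here halofantrine replicate 3 lay inside the WT range, below WT replicates 2 and 4. ENSMUSG00002076161 was at 1.61, 3.08, 1.11 and 2.90 CPM in WT, at 0.737, 0.376 and 0.123 CPM in rd10 DMSO, and at 1.33, 13.1 and 5.48 CPM with halofantrine. Its lowest value rested on 2 counts, and the 7SL value in the same library on 19 counts, so ratios against rd10 DMSO replicate 3 are imprecise for these members. In that library Mir6236 had 57 counts, ENSMUSG00000140136 had 122 and Lars2 had 1213.

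**Figure D1:**
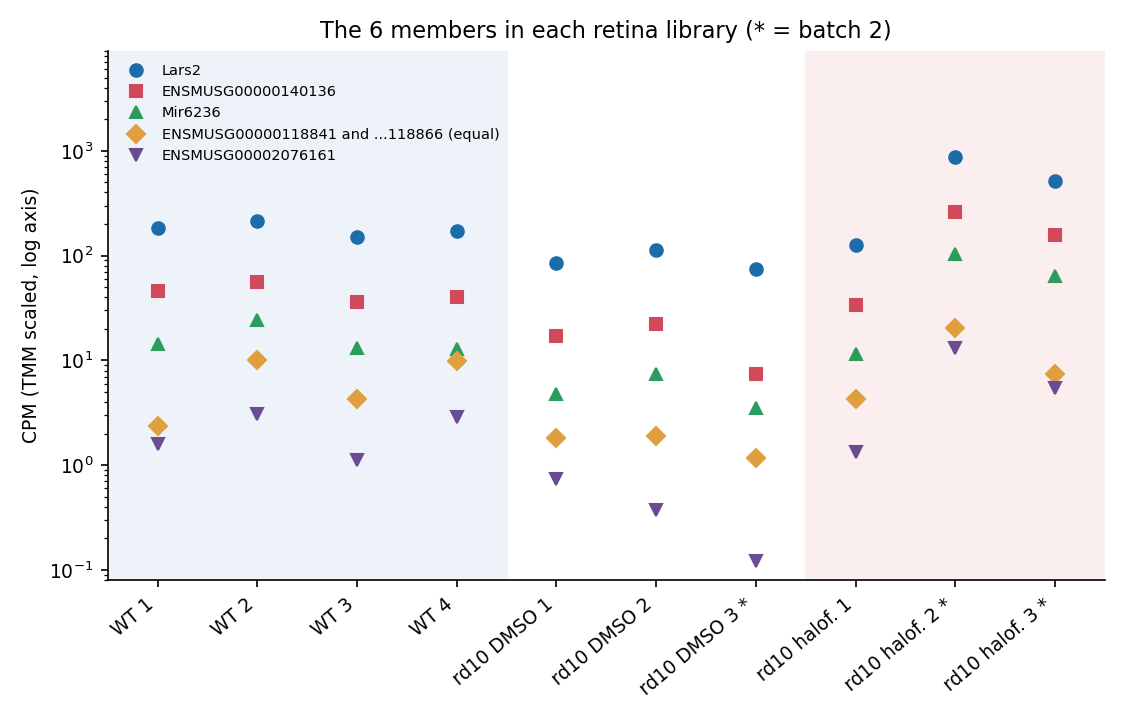
CPM (TMM scaled, log axis) of the members in each of the 10 libraries, 1 point per member and library, with the 2 members of equal counts drawn once; blue shading marks WT, red shading halofantrine, and an asterisk batch 2. Levels are not per length, so the reader should compare libraries within a member, where halofantrine replicate 2 is highest (880 CPM for Lars2) and rd10 DMSO replicate 3 lowest (74.6 CPM).

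All 3 halofantrine libraries lay above all 3 rd10 DMSO libraries for 6 of 6 members, a pattern shown by 6.91% of the 11702 genes, and nothing is read from that count because the contrast chose the members. Both halofantrine libraries of batch 2 lay above the other 8 libraries for 4 of 6 members, the exceptions being the 7SL pair, against 3% of all genes. The members were chosen for standing high in these 2 libraries, so nothing is read from that count either. Taken as means, the 2 batch 2 halofantrine libraries were 7.72 times the rd10 DMSO mean for Lars2, 8.61 times for the 7SL pair, 13.5 times for ENSMUSG00000140136, 15.9 times for Mir6236 and 22.5 times for ENSMUSG00002076161. Halofantrine replicate 1, of batch 1, was 1.38 times the rd10 DMSO mean for Lars2 and 2.18 times for Mir6236. For ENSMUSG00000140136, the 7SL pair and ENSMUSG00002076161 it was 2.16, 2.68 and 3.23 times.

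The size of the difference varied with the batch. On the log2 CPM scale the halofantrine minus DMSO difference of Lars2 was 2.11 over all 6 rd10 libraries, 0.36 within batch 1 and 3.18 within batch 2. For Mir6236 it was 3.06 over both batches, 0.92 within batch 1 and 4.51 within batch 2. For ENSMUSG00000140136 the 3 values were 2.97, 0.79 and 4.75, for the 7SL pair 2.40, 1.20 and 3.32, and for ENSMUSG00002076161 3.48, 1.21 and 5.42. Every one of these differences was positive, and in each member the batch 2 difference was the larger. Batch 1 held 1 halofantrine library and batch 2 held 1 DMSO library, which was also the lowest of all 10, so neither difference has a replicated group on both sides. The halofantrine group was widely spread, with Lars2 at 509 ± 378 CPM (SD, n = 3) against 90.7 ± 19.7 CPM (SD, n = 3) with DMSO, and its 2 libraries of batch 2 also differed from each other (880 and 520 CPM).

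In the authors' estimated counts, the Lars2 counts that differed between libraries were assigned to 1 transcript. Of 9 Lars2 transcripts in the table, the protein-coding Lars2-201 (3894 bases in GENCODE M21) and Lars2-209 (3756 bases), a transcript annotated as a target of nonsense-mediated decay, held all but 0.0531% to 2.77% of the gene's counts. Nonsense-mediated decay is the surveillance that removes mRNAs with a premature stop codon. Lars2-201 stayed in a narrow range, at 47.5, 62.8, 47.2 and 57.5 CPM in WT, at 51.3, 41.2 and 68.5 CPM in rd10 DMSO, and at 53.1, 52.6 and 40.4 CPM with halofantrine. Lars2-209 was at 137, 148, 101 and 112 CPM in WT, at 32.2, 70.6 and 4.03 CPM in rd10 DMSO, and at 71.2, 827 and 479 CPM with halofantrine. The 2 batch 2 halofantrine libraries therefore held the lowest level of the protein-coding transcript (replicate 3) and a level near its WT mean of 53.8 CPM (replicate 2), together with the highest levels of the other.

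The share of Lars2 counts on Lars2-209 was 94.0% and 92.1% in halofantrine replicates 2 and 3 and 56.8% in replicate 1. In WT it was 73.9%, 69.9%, 67.5% and 65.8%, and in rd10 DMSO it was 38.0%, 62.6% and 5.40%. Of the difference in Lars2 CPM between the rd10 DMSO mean and the mean of the 2 batch 2 halofantrine libraries, 101% was assigned to Lars2-209 and -1.18% to Lars2-201. Raw counts on Lars2-209 ran from 65.5 in rd10 DMSO replicate 3 to 28462 in halofantrine replicate 2, while those on Lars2-201 ran only from 809 to 1811.

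**Figure D2:**
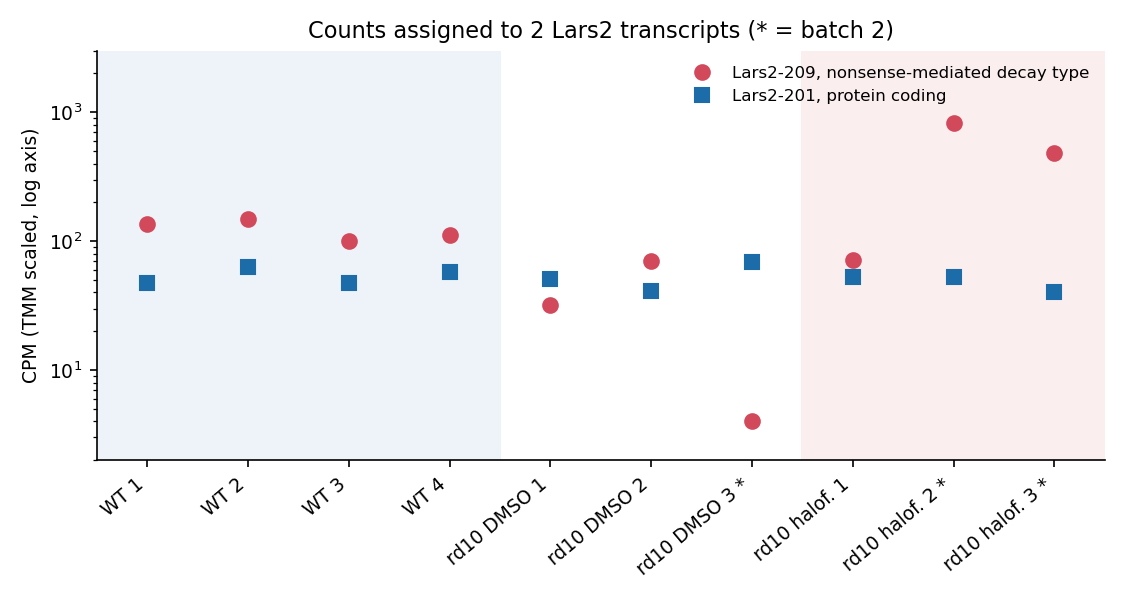
CPM (TMM scaled, log axis) assigned to the protein-coding Lars2-201 (squares) and to Lars2-209 (circles) in each library, 1 point each; an asterisk marks batch 2. Lars2-201 stays between 40.4 and 68.5 CPM, while Lars2-209 runs from 4.03 CPM in rd10 DMSO replicate 3 to 827 CPM in halofantrine replicate 2.

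The split between these 2 transcripts rests on few bases. In GENCODE M21, 99.1% of the 31-base words of Lars2-209 were also in Lars2-201, and only 35 of its 3726 words were its own, 33 of them at 1 splice difference. Lars2-201 had 173 of 3864 words of its own, 146 of them at that splice difference. The 2 transcripts are shown there with the bases found in only that transcript in capitals and 30 shared bases on each side.
Lars2-209: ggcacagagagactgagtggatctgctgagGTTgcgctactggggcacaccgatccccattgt
Lars2-201: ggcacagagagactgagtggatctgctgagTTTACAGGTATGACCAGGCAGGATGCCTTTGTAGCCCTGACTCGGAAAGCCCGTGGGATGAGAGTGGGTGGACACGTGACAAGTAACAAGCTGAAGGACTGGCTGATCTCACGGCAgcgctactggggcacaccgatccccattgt
Lars2-209 lacks 113 bases there on balance. Reads elsewhere in the gene fit both transcripts, and the authors' estimator divided them, so the assignment to Lars2-209 is an estimate whose error the files do not give. The transcript versions in the table are later than those in GENCODE M21, and their sequences may differ. By 31-base words Lars2 also overlapped 2 other annotated genes, AA474408 and Gm15564, and Gm15564 held at most 0.151 CPM on any of its 3 transcripts in any library.

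The 2 transcripts were also compared between WT and rd10 DMSO. Low Lars2 in the DMSO libraries was in part a condition of its being chosen, so neither these values nor their p-values are independent of that choice, and nothing is read from them beyond the levels. Lars2-201 was at 53.7 ± 13.8 CPM (SD, n = 3) in rd10 DMSO and 53.8 ± 7.70 CPM (SD, n = 4) in WT, an exact two-sided permutation p of 0.971. Without the library labelled WT replicate 4 the WT mean was 52.5 ± 8.92 CPM (SD, n = 3), with an exact permutation p of 1.0. Lars2-209 was at 35.6 ± 33.4 CPM (SD, n = 3) in rd10 DMSO and 124 ± 21.9 CPM (SD, n = 4) in WT, and the groups did not overlap (exact two-sided permutation p = 0.0571). The share on Lars2-209 was 35.3 ± 28.7% (SD, n = 3) against 69.3 ± 3.51% (SD, n = 4), again without overlap (exact two-sided permutation p = 0.0571). That is the smallest p that 3 against 4 libraries allow, so no value here could pass 0.05. Without the library labelled WT replicate 4 the share in WT was 70.5 ± 3.21% (SD, n = 3), and the exact permutation p was 0.10, again the smallest possible. Lars2-209 was then at 129 ± 24.8 CPM (SD, n = 3) in WT, also with an exact permutation p of 0.10. The difference in the share depended on rd10 DMSO replicate 3, and moved from -33.9 to -19.0 percentage points without that library.

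One pair of members kept a near-constant proportion over a wide range of levels, and the others varied more. The ratio of ENSMUSG00000140136 counts to Mir6236 counts lay between 2.14 and 3.52 in all 10 libraries, while Mir6236 itself ran from 3.51 to 103 CPM. Lars2 held 8.06 to 21.3 counts per Mir6236 count, with the highest ratio in rd10 DMSO replicate 3. Lars2-209 held 6.15 to 9.5 counts per Mir6236 count in 9 libraries and 1.15 in rd10 DMSO replicate 3. Lars2-201 shared no such ratio, with 0.510 to 19.5 counts per Mir6236 count. The 7SL pair (0.115 to 0.764 counts per Mir6236 count) and ENSMUSG00002076161 (0.0351 to 0.225) were looser, and both ratios were highest in the library labelled WT replicate 4.

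Over 10 libraries the Pearson correlation of log2 CPM between members had a median of 0.929 over 15 pairs, from 0.830 between Lars2 and the 7SL pair to 1.00 within the equal pair. Mir6236 and ENSMUSG00000140136 reached 0.989 and Lars2 and Mir6236 0.987. With halofantrine replicates 2 and 3 left out, the median over the other 8 libraries was 0.885, with a range from 0.799 to 1.00. Those 8 libraries include the difference in level between WT and rd10 DMSO, and over the 4 WT libraries alone, too few for a correlation to be read, the median was 0.661 and the lowest value 0.291. Lars2-209 correlated with the members at 0.818 (the 7SL pair) to 0.965 (ENSMUSG00000140136), and Lars2-201 at -0.37 (ENSMUSG00000140136) to 0.021 (the 7SL pair). These values describe the libraries, which share a group structure, and carry no test.

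Other genes moved with the members, and those closest in size had no name in the reference. Of 210 genes of the table without a symbol, 1.79% of all, 4 non-members took 4 of the 5 highest places in likeness to the mean of the members. ENSMUSG00000141422 correlated with it at 0.969 and was at 97.3 and 47.3 CPM in halofantrine replicates 2 and 3, against 1.41 to 14.8 CPM in the other libraries. ENSMUSG00000119584 correlated at 0.946 and was at 2509 and 1409 CPM, against 205 to 536 CPM elsewhere. ENSMUSG00000140457 (0.954) stood at 32.6 and 11.6 CPM against 0.246 to 7.61 CPM, and ENSMUSG00000136525 (0.931) at 122 and 42.7 CPM against 0.185 to 9.78 CPM. In each of the 4, as in the members, rd10 DMSO replicate 3 was lowest and halofantrine replicate 2 highest. The 4 were picked for their likeness to the members, so that order was in part a condition of being picked, and nothing is read from it.

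The named genes nearest to the members, picked by the same likeness, had a similar order of libraries but far smaller differences. Mrpl52, a protein of the mitochondrial ribosome, correlated with the mean of the members at 0.941, and its mean in halofantrine replicates 2 and 3 was 1.36 times that of the other 8 libraries. For Ap4s1, Nr2f6, Oaz2, Cisd3 and Ndufa6 (0.890 to 0.914) that ratio was 1.05 to 1.51. The corresponding ratio was 3.13 for the 7SL pair, 5.03 for Lars2, 6.49 for ENSMUSG00000140136, 6.60 for ENSMUSG00002076161 and 7.31 for Mir6236. With a mean of at least 1 CPM, 10 genes were above the other 8 libraries in both and reached the ratio of Lars2, of which 4 were members, 4 were the unnamed loci above, and 2 were Fam177a, named after its values were seen, and Hist2h2aa2, both at 0 in several libraries.

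The question behind these loci was whether they stood high together as ribosomal RNA carry-over would. The 2 mitochondrial ribosomal RNAs differed far less between the same libraries than the members did. Whether they enter such libraries in the way cytosolic ribosomal RNA would was not tested, so nothing on carry-over is read from them. mt-Rnr1, the small-subunit RNA, was at 320 and 261 CPM in halofantrine replicates 2 and 3, at 284 CPM in replicate 1, at 292, 292 and 273 CPM in rd10 DMSO and at 206 to 280 CPM in WT, so halofantrine replicate 2 was the highest of the 10 libraries for it and replicate 3 was below every rd10 DMSO library. mt-Rnr2, the large-subunit RNA, was at 942 and 884 CPM in replicates 2 and 3, at 1076 CPM in replicate 1, at 1100, 1085 and 902 CPM in rd10 DMSO and at 885 to 1129 CPM in WT. The 25 transcripts that GENCODE M21 types as nuclear-encoded rRNA summed to at most 0.260 CPM in any library. Of further loci looked up because they overlap or resemble rRNA, Gm15564 had 3 transcripts with counts given. Gm42418, Gm26917, AY036118, Gm23935 and Gm24601 had 0, so their levels could not be followed. The reference used here, which is older than the files' annotation, named no row as 18S, 28S or 45S rRNA. It does not name the unnamed loci above either, ENSMUSG00000119584 at 2509 and 1409 CPM among them, so whether any of those rows is a cytosolic rRNA was not settled. The part of rRNA carry-over in the members was not tested.

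Entries of small RNAs without a poly(A) tail did not share 1 pattern. Whether the fragments assigned to these entries came from the free small RNAs was not tested. The 1136 small nucleolar RNA transcripts summed to 31 and 34.4 CPM in halofantrine replicates 2 and 3, inside the 27.1 to 37.2 CPM of rd10 DMSO. The 904 spliceosomal and other small nuclear RNA transcripts were level too, at 11.0 and 11.8 CPM against 8.82 to 11.6 CPM. The 1159 microRNA transcripts other than Mir6236 summed to 31.5 and 35.5 CPM, against 30.5 to 36.4 CPM. In contrast, Rpph1, the RNA of RNase P that trims tRNAs, had 100 and 24 counts in replicates 2 and 3 and at most 8 counts in any other library. Rmrp, the RNA of RNase MRP, had 36 and 10 counts there and at most 6 elsewhere. These 2 RNAs were chosen after their values were seen. The 34 transcripts typed as miscellaneous RNA, the 7SL pair left out, went the other way and were lowest in replicates 2 and 3, at 2.69 and 3.09 CPM against 3.12 to 7.33 CPM elsewhere. Rn7s6, a further entry of the 7SL family, was near the limit of detection, at 0.0767 and 0 CPM there and at most 0.343 CPM elsewhere.

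**Figure D3:**
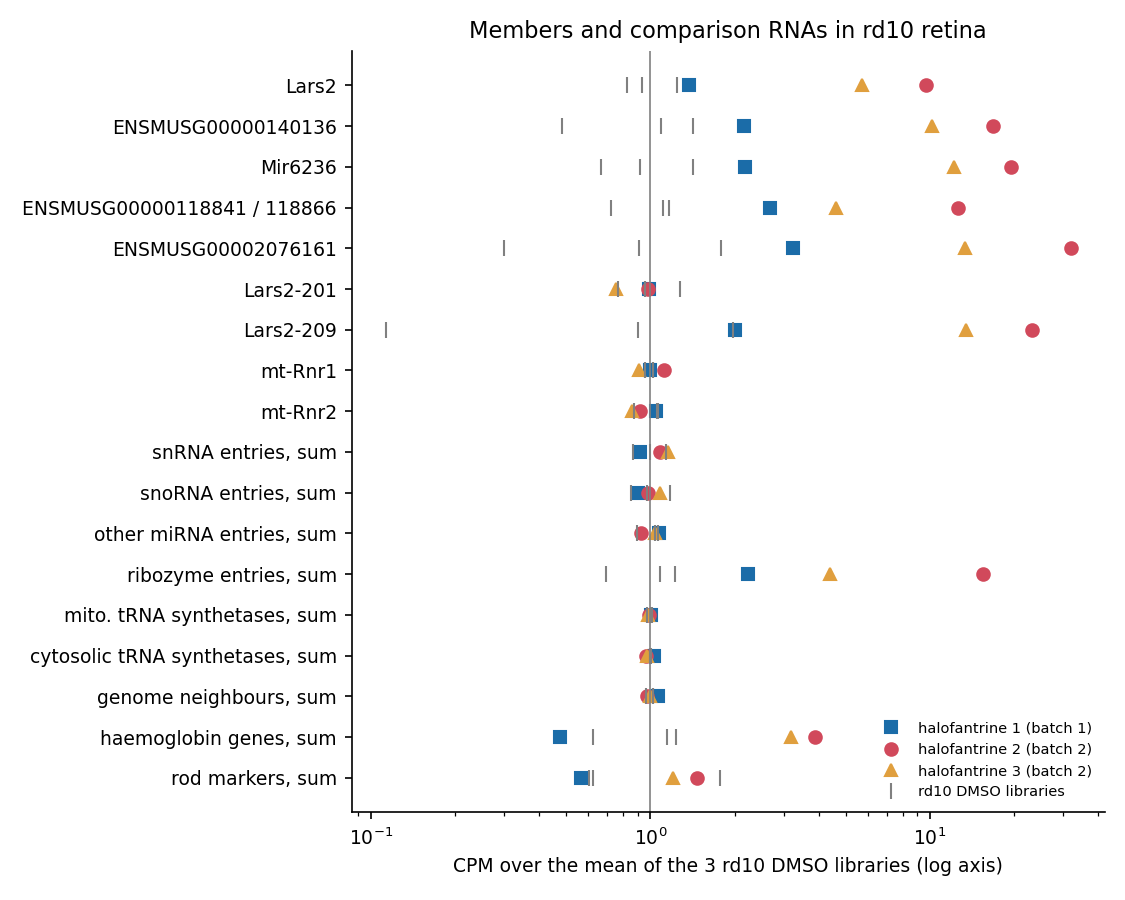
CPM of each member, of the 2 Lars2 transcripts and of comparison RNAs in the rd10 libraries, divided by the mean of the 3 rd10 DMSO libraries (log axis); grey ticks are the DMSO libraries and coloured symbols the halofantrine libraries. The members and Lars2-209 in halofantrine replicates 2 and 3 lie far to the right, with the ribozyme transcripts (4.13 and 1.17 CPM against 0.185 to 0.326 CPM) and the haemoglobin genes (96.5 and 79.6 CPM against 15.5 to 30.8 CPM), while mitochondrial rRNA, small nucleolar RNA and Lars2-201 do not.

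Haemoglobin transcripts, which come from red blood cells, moved with the members in part. Hba-a1, Hba-a2 and Hbb-bs summed to 96.5 and 79.6 CPM in halofantrine replicates 2 and 3, to 11.8 CPM in replicate 1, to 15.5 to 30.8 CPM in rd10 DMSO and to 24.1 to 60.3 CPM in WT, and 3 of 3 were higher in both batch 2 halofantrine libraries than in the other 8. Halofantrine replicate 1 was the lowest library for haemoglobin and was above each rd10 DMSO library for each member. Rod markers summed to 8159 and 6725 CPM in replicates 2 and 3 and to 9890 CPM in rd10 DMSO replicate 3, the other library of batch 2, against 3148 to 3491 CPM in the rd10 libraries of batch 1. Outside blood, Apoe of the Muller glia list (1150 and 1068 CPM against 243 to 1060 CPM) and Cldn5 of the endothelial list (12.8 and 12 CPM against 5.66 to 10.4 CPM) were above the other 8 libraries in both. They were 1 of 5 genes of the Muller glia list and 1 of 3 of the endothelial list. Rlbp1 of the first list was at 401 and 386 CPM in those libraries, against 338 to 556 CPM elsewhere. Pecam1 of the second was at 13.7 CPM in both, below its 14.6 CPM in rd10 DMSO replicate 3. For the rod, cone, bipolar, amacrine, ganglion, microglia, pigment epithelium and lens markers the count was 0, against 3% of all genes. The lens genes Cryaa (14.1 CPM against 0 to 3.09 CPM), Cryba1 (4.51 CPM against 0.0251 to 1.54 CPM) and Crybb2 (3.92 CPM against 0 to 1.17 CPM) were highest in halofantrine replicate 2. In replicate 3 they were at 0.0898, 0.0898 and 0.0299 CPM. Cryab of the same list was highest in replicate 3, at 79.3 CPM. The part of blood, of surviving rods or of other cells in the members' levels was not tested.

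The members were also compared between WT and rd10 retina. All 4 libraries labelled WT lay above all 3 rd10 DMSO libraries in 6 of 6 members, against 5.49% of the 11702 genes in the table. The WT mean was 1.98 times the rd10 DMSO mean for Lars2, 3.06 times for Mir6236, 2.86 times for ENSMUSG00000140136, 4.08 times for the 7SL pair and 5.27 times for ENSMUSG00002076161. Without the library labelled WT replicate 4 these ratios were 2.01, 3.27, 2.94, 3.42 and 4.69 in the same order. The DMSO libraries are those that the members were chosen against, so low DMSO values were in part a condition of being chosen. The members were also chosen together and follow each other, so the 6 of 6 and the p-values of this contrast are not independent of that choice, and nothing particular to the members is read from them. With rd10 DMSO replicate 3, the lowest library, left out, the log2 differences stayed between -0.85 (Lars2) and -1.99 (ENSMUSG00002076161).

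By edgeR's quasi-likelihood test over 7 libraries, none of the 11698 genes tested passed an adjusted p of 0.05 (0%), although 3108 had an unadjusted p under 0.05, 2020 of them lower in rd10 DMSO (17.3%). Over the same libraries DESeq2 called 589 genes, 498 of them lower (4.26%), and limma-voom 0. All 6 members were lower in rd10 DMSO with an unadjusted p under 0.05 and an adjusted p of 0.187 by edgeR. DESeq2 called all 6 as lower, with adjusted p from 0.00137 for Lars2 to 0.0265 for the 7SL pair. The log2 fold change of rd10 DMSO over WT was -0.98 ± 0.17 (SE) for Lars2, -1.60 ± 0.34 for Mir6236, -1.51 ± 0.35 for ENSMUSG00000140136, -2.01 ± 0.56 for the 7SL pair and -2.35 ± 0.69 for ENSMUSG00002076161. The median over all genes was -0.02.

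Without the library labelled WT replicate 4, edgeR called 7280 of 11696 genes, 3502 of them lower (29.9%) and 3778 higher (32.3%). All 6 members fell in rd10 DMSO in that fit. Lars2 fell by 0.99 on the log2 scale (SE 0.18, edgeR adjusted p = 0.00208), Mir6236 by 1.66 (SE 0.33, adjusted p = 0.00322) and ENSMUSG00000140136 by 1.52 (SE 0.35, adjusted p = 0.00655). The 7SL pair fell by 1.73 (SE 0.53, edgeR adjusted p = 0.0233) and ENSMUSG00002076161 by 2.15 (SE 0.66, adjusted p = 0.0232). The estimates moved little with that library. It sat with the other WT libraries for the members (170 CPM for Lars2, among 149 to 212 CPM) while its rod markers lay below those of rd10 DMSO. Its summed microglia and bipolar markers lay inside the range of rd10 DMSO. The members and the rod genes thus ordered this library differently.

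**Figure D4:**
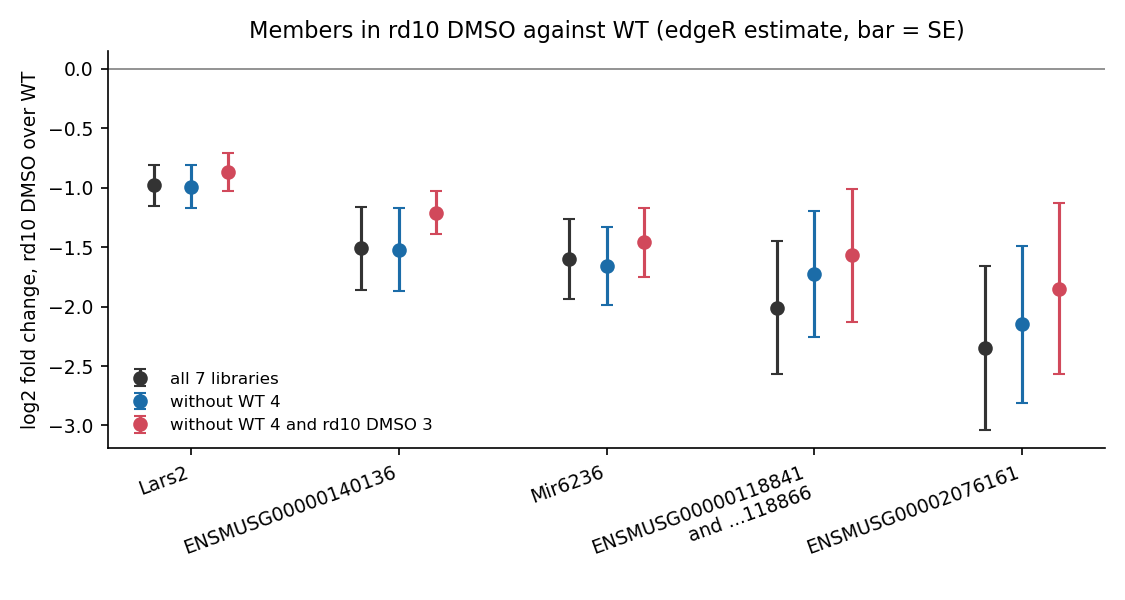
edgeR log2 fold change of rd10 DMSO over WT for the members, with its standard error as the bar, from all 7 libraries (black), without WT replicate 4 (blue) and without WT replicate 4 and rd10 DMSO replicate 3 (red). All estimates lie below 0, from -0.87 for Lars2 to -2.35 for ENSMUSG00002076161, and the black and blue points of each member lie within 1 SE of each other.

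Leaving out both that library and rd10 DMSO replicate 3, an alternative chosen after the data were seen, kept only batch 1. All 6 members passed the edgeR test there, from -0.87 ± 0.16 (SE) for Lars2 (adjusted p = 0.00123) and -1.21 ± 0.18 for ENSMUSG00000140136 (adjusted p = 0.000398) to -1.85 ± 0.72 for ENSMUSG00002076161 (adjusted p = 0.0455). In that fit 8460 genes were called, 4195 of them lower (35.9%), so passing it sets the members apart little.

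The other aminoacyl-tRNA synthetases, which load amino acids onto tRNAs, were set beside Lars2. None of 16 further mitochondrial synthetases lay above the other 8 libraries in both batch 2 halofantrine libraries, where 3% of all genes did, and their sum was 543 and 542 CPM there against 537 to 560 CPM in rd10 DMSO. Between rd10 DMSO and WT their median log2 fold change was -0.20, with 0 of 16 past the edgeR adjusted threshold and 3 lower at an unadjusted p under 0.05, against 0% and 17.3% of all genes. Without the library labelled WT replicate 4, 8 of 16 fell and 0 rose, in a fit where 29.9% of all genes fell and 32.3% rose. Their median was -0.24, against -0.01 over all genes. Mars2, the mitochondrial methionine enzyme, fell by 0.64 there and Aars2, for alanine, by 0.74 (edgeR adjusted p = 0.00545 and 0.00181), while Iars2, for isoleucine, was at 0.03 (adjusted p = 0.745). Of 18 cytosolic synthetases, 2 fell and 2 rose in that fit, against the same shares of all genes.

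Genes next to the members in the genome were followed in the same libraries. Of 12 neighbours, 3 on each side of Lars2 and of Mir6236, 0 lay above the other 8 libraries in both batch 2 halofantrine libraries, which few genes did (3%), and their sum was 747 and 765 CPM there against 736 to 780 CPM in rd10 DMSO. Zdhhc3 and Limd1, neighbours of Lars2, were at 72.0 and 71.0 CPM and at 18.5 and 19.3 CPM in those libraries, against 66.4 to 76.5 CPM and 19.4 to 20.4 CPM in rd10 DMSO. Of the neighbours, 3 fell in rd10 DMSO and 5 rose without the library labelled WT replicate 4, against 29.9% and 32.3% of all genes. Tgm4, another neighbour of Lars2, fell by 1.28 on the log2 scale in that fit (edgeR adjusted p = 0.000136). Its level was 8.78 and 8.05 CPM in halofantrine replicates 2 and 3.

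Mitochondrial mRNAs and further lists of noncoding RNA were compared in the same way. The 13 mitochondrially encoded mRNAs summed to 37189 and 36798 CPM in halofantrine replicates 2 and 3 and to 36013 to 39092 CPM in rd10 DMSO. Among them mt-Nd3, a subunit of complex I, was at 316, 274 and 274 CPM with halofantrine, above the 144 to 225 CPM of rd10 DMSO and beside 240 to 286 CPM in WT. Of 8 nuclear long noncoding RNAs, which are kept in the nucleus, 0 lay above the other 8 libraries in both. Only 3% of all genes did, so nothing is read from that count. Malat1, the most studied of them, was at 1401, 1573 and 1530 CPM with halofantrine, above the 1186 to 1290 CPM of rd10 DMSO, by far less than any member. Of 5 further microRNA entries of the gene table, which are host genes such as Mir124a-1hg rather than hairpins, 0 were high in both, again beside 3% of all genes. Among 7 replication-dependent histone genes, whose mRNAs end without a poly(A) tail, Hist3h2a (77.2 and 72.7 CPM) and Hist2h2aa2 (6.57 and 4.31 CPM) were above the other 8 libraries in both, against 3% of all genes. The mean of those 2 libraries over that of the other 8 was 1.24 for Hist3h2a and 7.36 for Hist2h2aa2. For Hist1h1c and Hist1h2be of the same list it was 0.436 and 0.59.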

How the data were processed

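Total RNA of mouse retina (RIN of at least 9) was made into stranded libraries by the authors, who quantified them with kallisto against Ensembl release 115 and imported them with tximport. The submitters' processing notes name GRCm39, edgeR and limma, and give no versions. The authors deposited estimated counts (an expected count need not be whole) per gene (11702 genes) and per transcript (275112 transcripts). Their deposited CPM table is a signal, the gene counts divided by 1 constant per library, and its columns sum to 943804 to 1127682. A deposited table of the authors' halofantrine comparison, with fold changes and p-values, was not used.

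Counts were rounded and scaled by TMM over 10 libraries for CPM, without a filter. The main edgeR fit filtered genes with filterByExpr and computed TMM on its own libraries. For rd10 DMSO against WT, 7 libraries entered edgeR (4.0.16, R 4.3.3), with its quasi-likelihood F test and Benjamini-Hochberg adjustment over all genes; DESeq2 1.42.0 and limma-voom 3.58.1 were alternatives. The script was tested on simulated data with the spread of these 7 libraries, where it gave every changed gene it called the right sign but missed more of the changed genes than it called. Log2 CPM used a prior count of 2. Transcript CPM used the gene table's library sizes. Single values were compared by exact permutation with SciPy. No label names separate cultures or litters, so p-values measure the spread between these libraries. The chi-square between 2 libraries of a group was at least 4.48 per gene, so none was a copy. Counting intervals were not computed.

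The reference was GENCODE M21, of another build (GRCm38) than the files, so no coordinates are given. The sequences of Mir6236 and of the 7SL RNAs are not reported here. It matched 11492 of the gene identifiers and 97.4% to 97.7% of transcript counts. Histone symbols were matched by their older names, and no member of the list of other small RNAs was in the gene table. Named genes were the members, the 10 genes most correlated with their mean and the 5 most correlated with Lars2 (mean of at least 1 CPM), and, per list, the 3 highest and those higher in both batch 2 halofantrine libraries than elsewhere; Mars2, Aars2, Zdhhc3, Limd1, Tgm4, mt-Nd3 and the RNAs Rpph1, Rmrp and Rn7s6 were chosen after their values were seen. The members and lists were chosen with earlier results of these data known.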

Additional observations from a re-analysis of the deposited data

Results flagged for a closer look

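Results were checked for a library far from the others of its group, which was possible only in WT, the group of 4 libraries; chance marks about 1 in 20 such groups, and 19 results were checked, the equal pair counted as 2. Mir6236 was marked for WT replicate 2, at 24.1 CPM against 12.9 to 14.4 CPM in the other 3, a gap of 0.86 of the group's range. The library labelled WT replicate 4 was marked for the 5 others. mt-Rnr1 was at 280 CPM there against 206 to 210 CPM (a gap of 0.935 of the range), mt-Rnr2 at 1129 CPM against 885 to 908 CPM (0.903) and their sum at 1409 CPM against 1090 to 1115 CPM (0.922). The microRNA host genes summed to 1317 CPM there against 3010 to 3273 CPM (0.866), and the mitochondrial aminoacyl-tRNA synthetases to 543 CPM against 624 to 636 CPM (0.872). In each of these 5 the library lay in or next to the range of the rd10 DMSO libraries, whereas it was marked for no member.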

How the results depend on the processing

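The direction of each member was the same under every alternative run. Against WT, DESeq2 gave rd10 DMSO values of -0.97 for Lars2, -1.59 for Mir6236, -2.01 for ENSMUSG00000118841 and ENSMUSG00000118866, -1.50 for ENSMUSG00000140136 and -2.36 for ENSMUSG00002076161, with adjusted p from 0.00137 to 0.0265, and called 589 genes. With single libraries left out in turn, edgeR gave -1.16 to -0.85 for Lars2, -1.94 to -1.35 for Mir6236, -2.29 to -1.73 for ENSMUSG00000118841 and ENSMUSG00000118866, -1.84 to -1.17 for ENSMUSG00000140136 and -2.95 to -1.99 for ENSMUSG00002076161. The adjusted p was under 0.05 only without WT replicate 4, and the count of genes called was 0 in 6 of 7 omissions and 7280 without that library. Without WT replicate 4 and rd10 DMSO replicate 3 (chosen after seeing the data) the values were -0.87, -1.46, -1.57 (both of the equal pair), -1.21 and -1.85 in the same order, with 8460 genes called. limma-voom, library size alone, no filter and all 10 libraries called 0 genes, with member adjusted p from 0.0913 to 0.213. The differences of halofantrine from DMSO stayed positive in all 9 alternatives for each member, from 1.51 to 2.92 for Lars2 and 2.42 to 4.0 for Mir6236, and the median correlation ran from 0.885 to 0.968. The difference in the share on Lars2-209 ran from -47.6 to -19.0 percentage points with single libraries left out; the alternative over protein-coding transcripts gives no value, because Lars2-209 is not one of them. No paired analysis was possible because the replicate numbers follow accession order, and the set names in the titles are shared by no WT and rd10 library; 1 set name, of batch 1, holds both DMSO and halofantrine libraries, for which no test was run. Members with under 100 counts in a library are limited by depth.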
